A study of Sus scrofa with 10 samples.

Results

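CALB1 (calbindin), CALB2 (calretinin) and PVALB (parvalbumin) encode small calcium-binding proteins of the EF-hand family. They were followed here in all 10 single-cell libraries of the pig medial entorhinal cortex (MEC) and in its neuronal classes. The genes were chosen by name, and these 3 genes were found by their symbols among the 22452 genes of the deposited tables. The tissue came from the fetal pig at embryonic day 50 (E50), E60 and E70 and from pigs labelled adult, with no transgene and no treatment in any group. The study's text gives a postnatal day for the adult libraries, so how mature these animals were is not settled here. Papain-dissociated whole cells gave 8 libraries, of which E50 and the adult had 1 each and E60 and E70 had 3 each. Nuclei of snap-frozen tissue, sorted by a DNA dye, gave 1 library for E70 (E70_nc) and 1 for the adult (Adult_nc). A library held 1 brain or, in E50_1 (3 brains), E60_3 and E70_1 (2 brains each by the labels), several pooled brains that could not be separated.

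EF-hand proteins bind calcium in a helix-loop-helix fold. Calbindin, calretinin and parvalbumin act mostly as mobile buffers, which take up calcium that enters the neuron and shape the time course of the signal. In the cortex they are used to tell interneurons apart, since parvalbumin marks fast-spiking basket and chandelier cells, calretinin marks many interneurons of the caudal ganglionic eminence as well as Cajal-Retzius cells, and calbindin marks other interneurons and some pyramidal neurons. In the MEC calbindin also marks clustered pyramidal neurons of layer II. Outside the cortex, calbindin is abundant in the Purkinje cells of the cerebellum.

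The libraries were made with a 3′ chemistry, so a transcript is counted near its end, and the ends annotated for these genes are given here because they are what the counts sample. In RefSeq's annotation of Sscrofa11.1 all of them lie on the plus strand. CALB1 lies on chromosome 4 from 46701276 to 46723548 with 11 exons, a coding length of 786 bases and a 3′ untranslated stretch of only 77 bases. CALB2 lies on chromosome 6 from 14392220 to 14420663 with 11 exons, a coding length of 816 bases and a 3′ untranslated stretch of 516 bases. PVALB lies on chromosome 5 from 10953559 to 10973300 with 4 exons, a coding length of 333 bases and a 3′ untranslated stretch of 195 bases. The 30 bases shown for each gene are exonic and untranslated, with the polyadenylation signal AATAAA in capitals where the last 50 bases of the transcript held it.
CALB1, chr4:46723519-46723548: taactgtgcactgtaacggagtaggctgta
CALB2, chr6:14420619-14420648: gagttcacagttAATAAAaaggaaatgtcc
PVALB, chr5:10973259-10973288: tgatggagaaacAATAAAggctgtaccaat
The signal, searched on the transcript strand only, began 33 bases before the annotated end of CALB2 and 30 bases before that of PVALB. The annotated end of CALB1 had none, and the next AATAAA in the genome began 664 bases beyond it. Of 19535 genes with an annotated transcript, 51.2% had the signal in the same window. Reads mapped to introns were counted as well, and counting used the Ensembl models, whose ends were not used here. Levels of different genes are therefore not compared with each other.

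The 10 libraries held 28229 cells, between 493 and 8171 each, with a median of 690 UMIs (unique molecular identifiers, or counted molecules) per cell in Adult_nc and up to 9403 in E70_2. Of the cell barcodes, 449 were found in more than 1 library. The libraries E60_1 and E60_2 stood apart from the others, with 9 and 4 excitatory neuron-like cells (0.110% and 0.115% of their cells) against 46.2% in E60_3 and 49.9% in E70_1. Astrocyte or radial glia-like cells made up 42.7% of E60_1 and 34.4% of E60_2. Levels are given as CPM, the usual scaling of a gene's UMIs by all UMIs of the same cells, and an interval beside a CPM value is an exact 95% Poisson interval that covers counting error only. Replicate libraries existed only for the whole cells of E60 and E70. No source said whether these came from separate litters, so their p-values measure the spread between libraries. In a library as a whole, fewer cells of a type and less RNA per cell cannot be told apart.

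CALB1 was concentrated in E50_1 and E60_1. It stood at 46.0 CPM in E50_1 (95% interval 44.3 to 47.8) and at 75.5 CPM in E60_1. In the other 8 libraries it lay between 1.24 CPM in Adult_1 (0.566 to 2.35, 9 UMIs) and 8.56 CPM in Adult_nc (5.23 to 13.2, 20 UMIs). E60_2 was at 1.93 CPM and E60_3 at 3.25 CPM, so the 3 E60 libraries did not have a common level. The E70 whole cells were at 3.01, 1.30 and 3.30 CPM and the E70 nuclei at 4.86 CPM, all within the range of the low libraries. A UMI of CALB1 was found in 4.28% of all cells, in 10.8% of those of E50_1, in 4.36% of those of E60_1 and in at most 3.65% elsewhere.

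CALB2 varied widely within each stage. The E60 whole cells were at 30.1, 7.82 and 81.4 CPM and the E70 whole cells at 44.3, 63.9 and 27.9 CPM, so the stages overlapped. E50_1 was at 78.0 CPM (75.7 to 80.4). The nuclei were the lowest of the E70 and adult libraries, with 8.42 CPM at E70 (5.50 to 12.3) and 10.3 CPM in the adult (6.58 to 15.3). Adult_1 had the highest value of all, 93.3 CPM (86.4 to 100.6), but a single cell held 487 of its 678 CALB2 UMIs (71.8%), and without that cell the library was at 26.5 CPM. In E70_1 and E70_2 the cell with the most UMIs held 23.6% and 30.9% of the CALB2 UMIs. Across the whole cell libraries 3.33% of cells in E60_2 to 20.2% in E50_1 had a UMI of CALB2.

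PVALB was sparse. It was represented by 499 UMIs in 28229 cells, at most 8 in a cell, and 1.52% of cells had any. E70_1 was at 9.50 CPM and E70_2 at 12.5 CPM, with a UMI in 10.8% and 11.8% of their cells. The third E70 whole cell library, E70_3, was at 1.01 CPM, near the E60 libraries at 2.5, 1.26 and 0.770 CPM and E50_1 at 2.19 CPM (1.82 to 2.61). The adult whole cells were at 2.34 CPM (1.36 to 3.75), the E70 nuclei at 2.59 CPM (1.12 to 5.10) and the adult nuclei at 5.99 CPM (3.28 to 10.1). The intervals of these last libraries overlap, so no order among them is read.

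**Figure D1:**
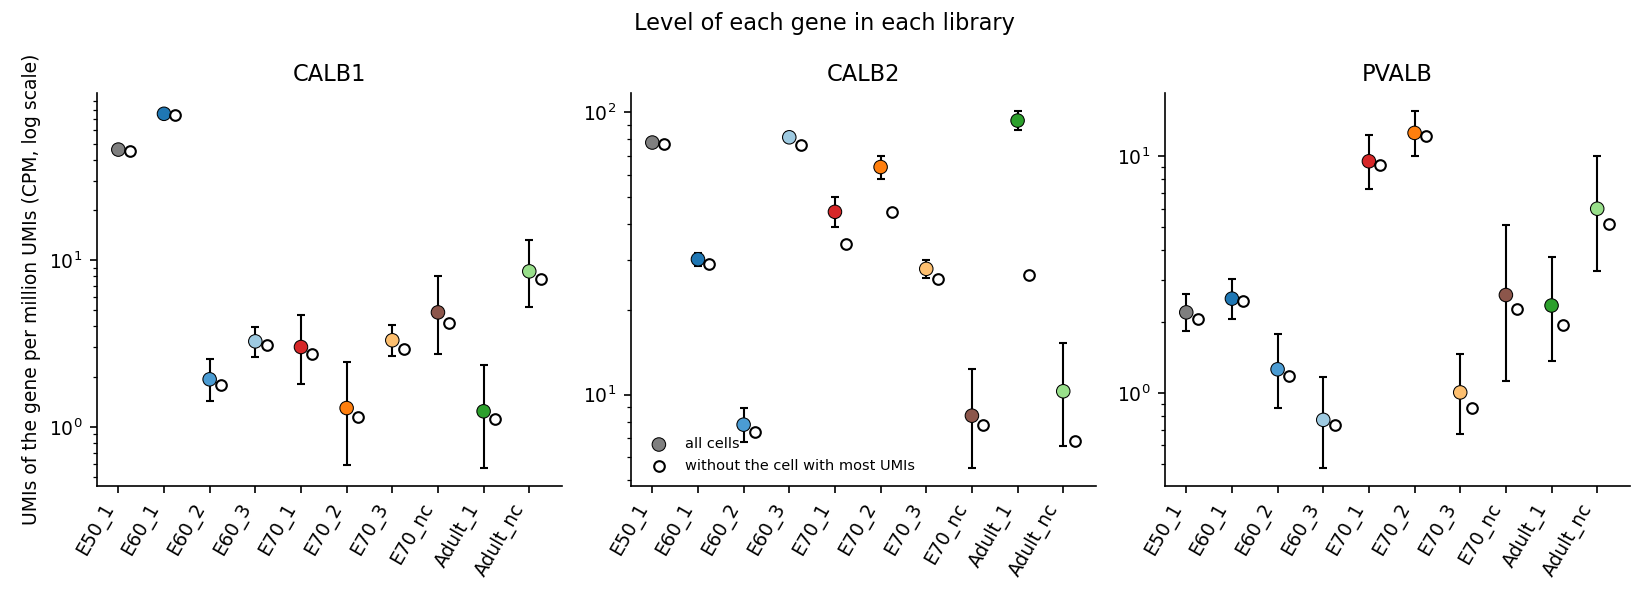
Level of CALB1, CALB2 and PVALB (CPM, log axis) in each of the 10 libraries, with exact 95% Poisson intervals. Filled points are all cells and open points leave out the cell with the most UMIs of the gene. CALB1 is high in E50_1 and E60_1, PVALB in E70_1 and E70_2, and CALB2 of Adult_1 falls from 93.3 to 26.5 CPM without 1 cell.

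The levels were next followed into cell classes. Cells were clustered without these genes and without any marker gene, and a cluster was named X-like where at least 3 markers of X were detected. The classes come from the same cells, so their levels are a description with no test. Microglia-like cells, which should lack these genes, are given as the background of free RNA. CALB1 stood at 190 CPM in the GABAergic neuron-like cells (110.5 CPM without E60_1, and 17.6 CPM without the Purkinje-like cells described further on and other cells with at least 10 CALB1 UMIs), 17.3 CPM in astrocyte or radial glia-like cells, 10.4 CPM in excitatory neuron-like cells, 8.91 CPM in microglia-like cells and 7.85 CPM in intermediate progenitor-like cells. A UMI of CALB1 was found in 16.8% of the GABAergic neuron-like cells, at a median of 5974.5 UMIs per cell, in 5.66% of the excitatory neuron-like cells, at 7357 UMIs, and in 1.504% of the microglia-like cells, at 5112 UMIs. With every cell thinned to 1000 UMIs the shares were 7.60%, 0.702% and 0.297%. Pooled over libraries, the GABAergic neuron-like cells thus stood above the background at either depth. In single libraries with at least 20 cells of the class they were at 1.01 to 586 CPM and the microglia-like cells at 0.683 to 19.9 CPM. The level in astrocyte or radial glia-like cells was 2.97 CPM without E60_1, and that in microglia-like cells 1.93 CPM. A single cluster held 512 of the 621 CALB1 UMIs of the astrocyte or radial glia-like class, at 162.4 CPM in 532 cells, 337 of them from E60_1. This cluster had AQP4, GFAP, SOX2 and SOX9 detected, but its leading genes were CALB1, TAC1, PCP4, SOX14 and SST, with no astrocyte marker among the leading 10, so they go against its name. CALB1 in the next highest cluster of that class was at 6.12 CPM.

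The GABAergic neuron-like class of 2804 cells was made of 4 clusters that differed in kind and in the libraries they came from. A cluster of 1592 cells led by PENK, SST and TAC1 came mainly from E50_1 (721 cells) and E60_1 (653 cells) and held all 89 cells of the class in E60_2. Another pair of clusters, with 585 and 399 cells and led by DLX1 and DLX5, transcription factor genes of cortical interneurons, held most of the class in E60_3 and in the E70 libraries and none of it in E60_1 or E60_2. The fourth, with 228 cells, was led by CALB1 itself, by CA8 and by EBF2, had no GABAergic marker among its 10 leading genes, and came from E50_1 (131 cells) and E60_1 (93 cells). A value of this class in E60_1 and in E70_1 is therefore a value of different clusters. The intermediate progenitor-like class of 1874 cells was mixed as well. It held a cluster of 234 cells led by RCVRN, GNB3 and SIX6, with no progenitor marker among the leading 10. It also held a cluster of 361 cells led by SCT and NPTX1 and a cluster of 213 cells led by CBLN1 and ZIC4. Levels given for that class are pooled over these different cells.

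When the 10881 neuronal cells were clustered on their own, CALB1 pointed to a single group. Among 24 neuronal clusters, cluster 18 stood at 2232 CPM, and 229 of its 231 cells (99.1%) had a UMI of CALB1. It was Purkinje-like by the markers fixed for that type: CA8, ITPR1, SKOR2, LHX1 and RORA were among those detected, while PCP2 was at 0 in E60_1 and at 1.42 CPM in E50_1. CA8 encodes a carbonic anhydrase-related protein that binds the calcium release channel encoded by ITPR1, and RORA is a nuclear receptor needed for Purkinje cells to mature. Cluster 18 held 3912 CALB1 UMIs, which were 63.5% of all CALB1 UMIs of the series. They were 71.1% of the CALB1 UMIs of E50_1 and 63.5% of those of E60_1. The labels name only entorhinal cells, so these 231 cells go against the labelled tissue.

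The Purkinje-like cells of the 2 libraries differed in level. In the 138 cells of E50_1 CALB1 was at 1292 CPM, with 0 to 51 UMIs per cell and a median of 10. In the 93 cells of E60_1 it was at 6142 CPM, with 2 to 62 UMIs per cell and a median of 22, although these cells had a median of 3258 UMIs in all against 10367 in E50_1. Other genes of these cells went both ways. CA8, at 1099 CPM in E50_1 and 803 CPM in E60_1, and FOXP2, at 502 and 356 CPM, were lower in E60_1. ITPR1, at 607 and 1224 CPM, and EBF1, at 1560 and 2240 CPM, were higher there, while LHX1 was at 261 and 277 CPM. Each stage had 1 library with such cells, so age and library cannot be told apart.

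Below the Purkinje-like cluster the order of clusters was much flatter. Next came cluster 11 (excitatory neuron-like, led by NTS, NTF3 and RGS4) at 35.4 CPM, cluster 3 (unnamed, led by TAC1, PENK and SST) at 31.4 CPM and cluster 8 (GABAergic neuron-like, led by PRPH and PENK, with TH and SST) at 28.4 CPM. The granule-like clusters 17 and 16 stood at 22.1 and 21.2 CPM and the deep-layer neuron-like cluster 14 at 21.6 CPM. Clusters 17, 14 and 16 have overlapping intervals, as do clusters 11, 3 and 8 (lower bounds of 31.0, 26.1 and 24.7 CPM), and all of these levels rest on few libraries. Lowest was cluster 9, GABAergic neuron-like cells led by CORT and carrying LHX6, a transcription factor gene of the medial ganglionic eminence, at 0.861 CPM with a UMI in 2 of 418 cells.

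Cluster 11 had the highest CALB1 among the excitatory neuron-like clusters. In E50_1 its 187 cells were at 86.2 CPM (74.8 to 98.9) and 47.6% of them had a UMI, and in E70_3 its 184 cells were at 7.30 CPM (4.89 to 10.5) with a UMI in 10.3%. CALB2 in the same cells was at 55.3 CPM (46.3 to 65.7) in E50_1 and 49.6 CPM (42.9 to 57.0) in E70_3. So CALB1 differed between these libraries beyond counting error and the intervals of CALB2 overlapped, but with 1 library a stage there is no replicate check. In the excitatory neuron-like class as a whole CALB1 was at 20.6 CPM in E50_1, 4.45 CPM in E60_3, 2.57, 1.57 and 4.67 CPM in the E70 whole cells, 5.32 CPM in the E70 nuclei and 4.51 CPM in the adult nuclei.

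**Figure D2:**
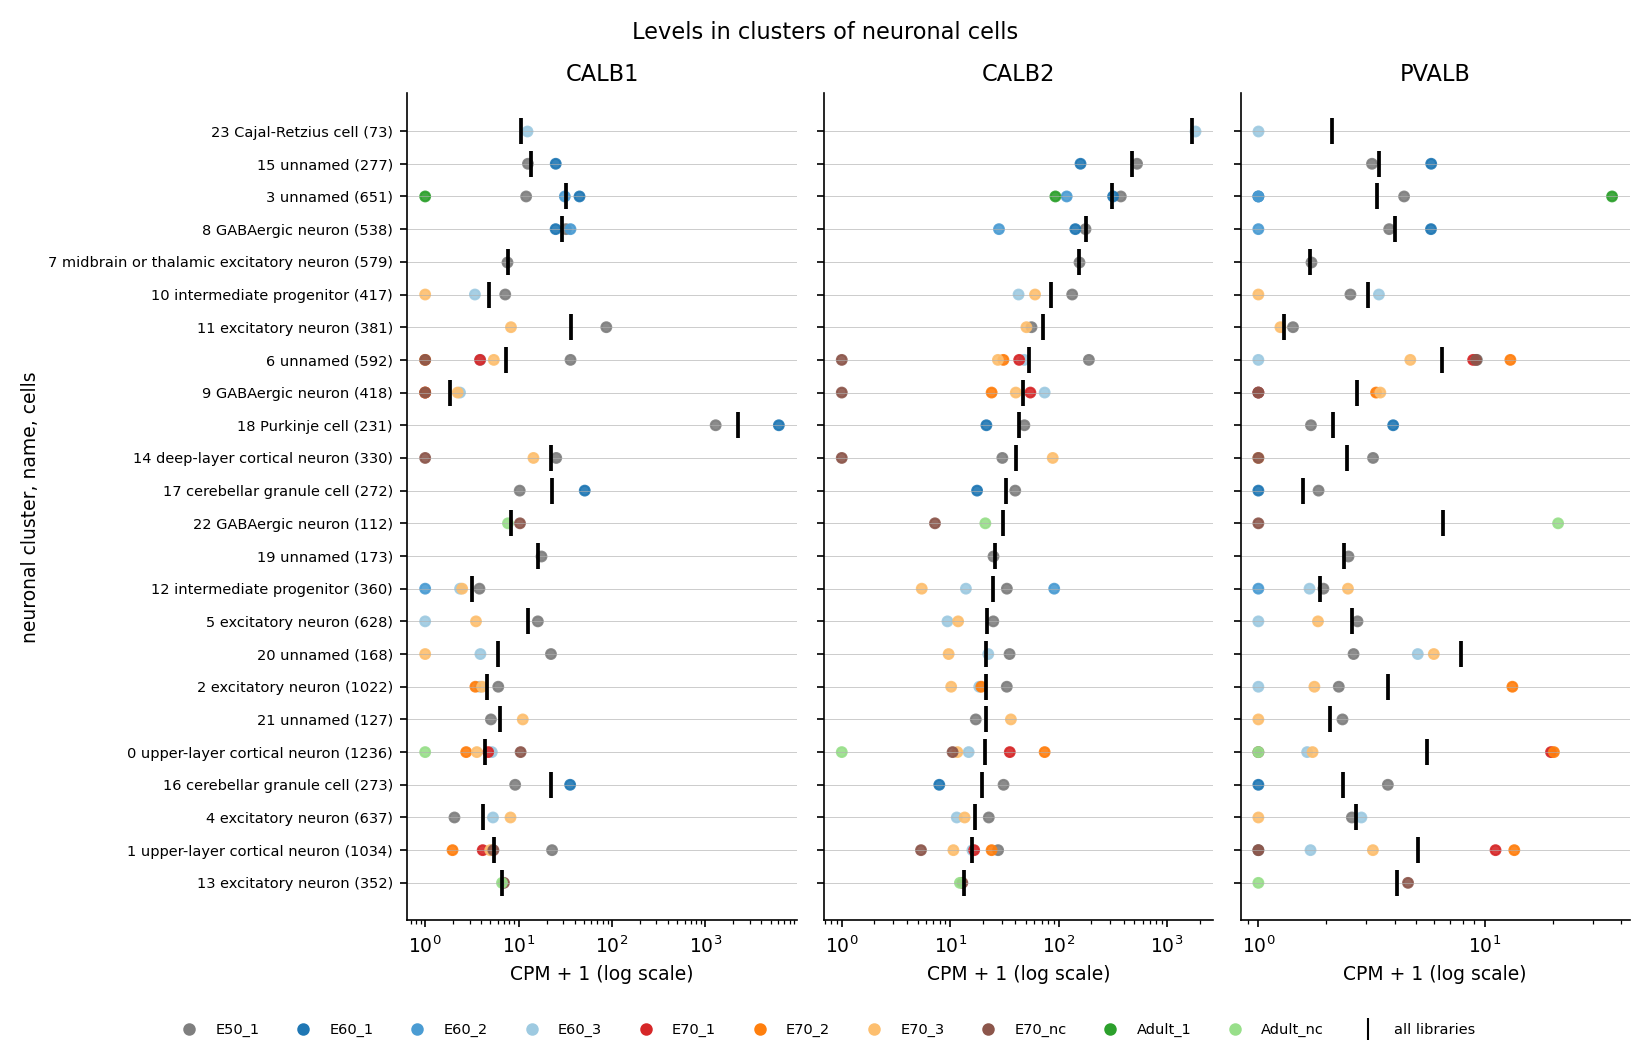
Level of CALB1, CALB2 and PVALB (CPM + 1, log axis) in the 24 clusters of neuronal cells. Bars are all libraries together and points are single libraries with at least 20 cells of the cluster. CALB1 peaks in the Purkinje-like cluster at 2232 CPM and CALB2 in the Cajal-Retzius-like cluster at 1689 CPM, while the pooled PVALB reaches 6.84 CPM at most, with single libraries above it.

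In E60_1, CALB1 was also found at high counts in cells named as other types. At least 10 UMIs of CALB1 were counted in 44 non-neuronal cells of this library, of which 24 were astrocyte or radial glia-like, 7 erythroid-like, 6 microglia-like, 6 vascular-like and 1 oligodendroglia-like. Together they held 812 CALB1 UMIs at 2863 CPM. Their CA8 stood at 624 CPM, ITPR1 at 677 CPM and EBF1, a transcription factor gene also high in the Purkinje-like cells, at 1442 CPM. The Purkinje-like cells of E60_1 had 803, 1224 and 2240 CPM of these genes, and the remaining 7028 non-neuronal cells of E60_1 had 54.4, 50.3 and 310 CPM, with CALB1 at 5.50 CPM. Markers of the named classes were found in the 44 cells to differing degrees. AQP4 was at 1405 CPM in the 24 astrocyte or radial glia-like ones, against 1394 CPM in the remaining 7028 non-neuronal cells of mixed classes. SLC1A3 was at 442 against 604 CPM and SOX2 at 48.2 against 63.8 CPM. The mixed cells included other microglia-like and erythroid-like cells, with AQP4 at 372.5 and 375.2 CPM. These values are therefore no comparison with the other astrocyte or radial glia-like cells of E60_1. C1QB was at 2404 CPM in the 6 microglia-like ones and at 4482 CPM in the other microglia-like cells of E60_1. In the astrocyte or radial glia-like class most CALB1 lay in the cluster whose leading genes go against its name. Scrublet doublet scores of the 44 cells had a median percentile of 90.9 within the library, and 9 were among the highest 5%. However, Scrublet marked 0 cells of E60_1 and 186 (0.659%) in the whole series. Whether these droplets held more than 1 cell was not tested.

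**Figure D3:**
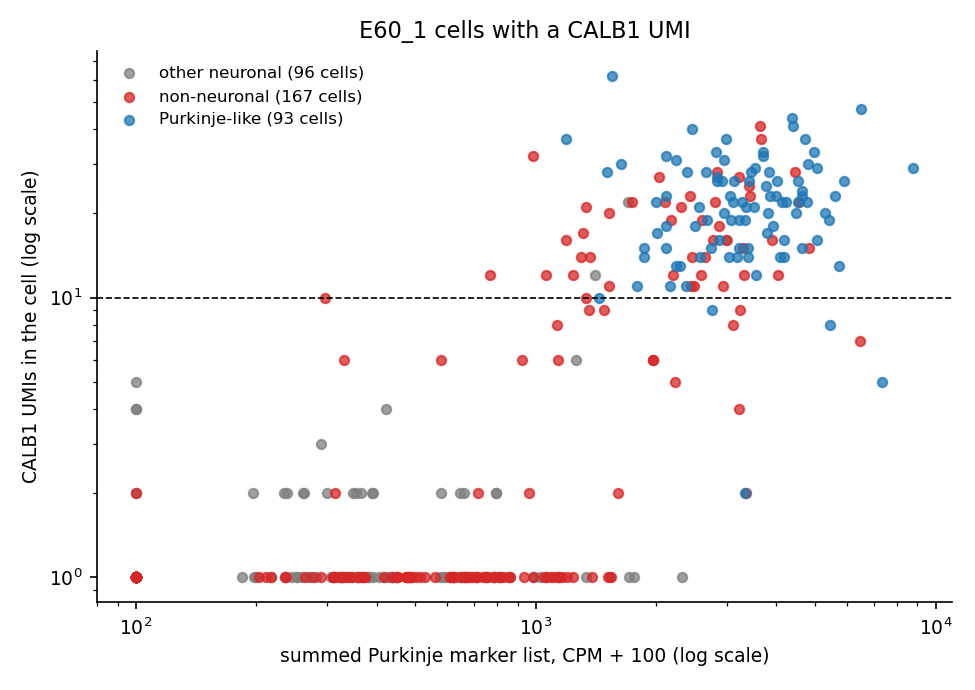
Cells of E60_1 with at least 1 UMI of CALB1, by the summed CPM of the Purkinje marker list (x axis, CPM + 100, log) and the number of CALB1 UMIs (y axis, log), for the 93 Purkinje-like cells, 96 other neuronal cells and 167 non-neuronal cells. The dashed line marks 10 UMIs, and 44 non-neuronal cells lie on or above it.

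CALB2 stood at 298 CPM in the GABAergic neuron-like cells, 36.4 CPM in the excitatory neuron-like cells, 34.8 CPM in the intermediate progenitor-like cells, 16.6 CPM in the astrocyte or radial glia-like cells and 8.22 CPM in the microglia-like cells. A UMI was found in 30.03% of the GABAergic, 12.6% of the excitatory neuron-like and 3.08% of the microglia-like cells. At 1000 UMIs per cell these shares were 11.4%, 2.24% and 0.510%. Pooled over libraries, both neuronal classes thus stood above the background in their share as well as in their CPM. In single libraries with at least 20 cells of a class the CPM overlapped. It ran from 3.95 to 1142 in the GABAergic, 10.6 to 54.1 in the excitatory neuron-like and 0 to 19.6 in the microglia-like cells. The distance between them depended on how the classes were drawn. Without batch correction the GABAergic neuron-like cells were at 193.5 CPM and the excitatory neuron-like cells at 107 CPM, and where cells were gated by the UMIs of their markers they were at 122.9 and 109 CPM.

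Among the neuronal clusters CALB2 was highest in cluster 23, at 1689 CPM, with a UMI in 66 of its 73 cells (90.4%, or 61.6% at 1000 UMIs per cell). This cluster was Cajal-Retzius-like, with RELN, TP73, LHX1, LHX5, NDNF and EBF3 detected and NHLH2 at 0. Cajal-Retzius cells are early-born neurons of the marginal zone that secrete reelin, the product of RELN, which guides the layering of the cortex. They are glutamatergic, and GAD1, which makes the transmitter GABA, was at 0 to 2.27 CPM in these cells, although most of them fell into the GABAergic neuron-like class in the clustering of all cells. Without the Cajal-Retzius-like cells that class stood at 179 CPM of CALB2.

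The 73 cells came from 8 libraries and none from E60_1 or E60_2. E50_1 gave 19 cells at 798 CPM with a median of 8 CALB2 UMIs per cell, and E60_3 gave 30 cells at 1834 CPM with a median of 47. Depth differed, with a median of 12360 UMIs in all in the cells of E50_1 and 29607.5 in those of E60_3. A UMI of CALB2 was found in 14 of the 19 cells of E50_1, and so was one of RELN. The E70 whole cells gave 3, 5 and 9 cells at 858, 1526 and 1189 CPM, with medians of 27, 34 and 28 UMIs. E60_3 thus had the highest CALB2 of the fetal libraries, and every cell of it had at least 9 UMIs. In nuclei the 3 cells of E70_nc held 2 CALB2 UMIs, at 133 CPM, while their RELN stood at 28630 CPM. RELN was between 3759 and 4468 CPM in the fetal whole cells, and so varied less between them than CALB2.

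These few cells carried a large part of CALB2 in several libraries. They held 69.5% of the CALB2 UMIs of E60_3, 38.6% of those of E70_1, 64.9% of those of E70_2 and 35.8% of those of E70_3. The cell with 487 CALB2 UMIs in Adult_1, already described, was the only Cajal-Retzius-like cell of that library. It had 60089 UMIs in all, with 285 of RELN, 92 of NDNF, 44 of LHX1 and 8 of TP73, and 0 of GAD1 and GAD2. A single cell has no replicate check.

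Several other neuronal clusters also carried CALB2 in quantity. Cluster 15, unnamed and led by ZFPM2, TFAP2B, PCP4 and SOX14 with GAD2, GAD1 and GATA3 behind them, was at 475 CPM, with 530 CPM in E50_1 and 159 CPM in E60_1. SOX14 and GATA3 are known as transcription factor genes of GABAergic neurons of the midbrain and thalamus. Cluster 3, the unnamed one led by TAC1, was at 311 CPM and cluster 8, led by PRPH, at 178 CPM. Cluster 7, midbrain or thalamic excitatory neuron-like with LHX9 and TCF7L2 as leading genes, was at 154 CPM and had 563 of its 579 cells in E50_1. Cluster 10, intermediate progenitor-like with EOMES as leading gene, was at 84.5 CPM, with 133 CPM in E50_1 (114 to 154) and 41.8 CPM in E60_3 (31.2 to 54.8).

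The interneuron-like clusters of the cortex were lower. Cluster 9, the CORT and LHX6 cells, was at 45.6 CPM, with 73.5 CPM in E60_3 and 54.0, 23.1 and 39.4 CPM in the E70 whole cells. Cluster 22, led by VIP and made mostly of nuclei, was at 29.6 CPM on 16 UMIs in 112 cells. At the other end, the upper-layer neuron-like clusters 0 and 1 were at 19.9 and 14.96 CPM and the excitatory neuron-like cluster 13 at 12.4 CPM. Neighbours in the order of the lowest 10 clusters had overlapping intervals.

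CALB2 was compared with the partner genes of interneuron classes over neuronal cells outside the Purkinje-like cluster. RELN was 13.9 times as high in the CALB2+ as in the CALB2- neurons of E60_3, and 2.73, 5.84 and 4.12 times as high in those of the E70 whole cells. The RELN-rich Cajal-Retzius-like cells were among the CALB2+ neurons of these libraries, and the ratio without them was not tested. In E50_1 the ratio was 1.22, and in E60_1, which had no such cells, it was 0.259. CCK, a neuropeptide gene of interneurons, had the larger CPM in the CALB2+ neurons of the 7 fetal whole cell libraries, but in E70_2 on few UMIs. For example, it was at 399.8 against 111 CPM in E60_1 and 25.1 against 5.02 CPM in E60_3. In E70_2 it was at 2.86 against 1.43 CPM. All neuronal cells of E70_2 held 4900015 UMIs, so its values rest on few CCK UMIs and no direction is read from them. VIP, a peptide gene of interneurons from the caudal ganglionic eminence, was at 5.85 CPM in the CALB2+ and 0.488 CPM in the CALB2- neurons of E60_3 but at 4.06 and 4.96 CPM in E50_1. LHX6 was at 10.1 CPM in both groups over all libraries. CALB2+ neurons had a median of 8304 UMIs against 6816 in CALB2- neurons, and the part of depth in these ratios was not tested.

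PVALB showed no class that stood out. Over all libraries the unnamed cells were at 4.73 CPM, the astrocyte or radial glia-like cells at 4.24 CPM, the intermediate progenitor-like cells at 3.26 CPM, the GABAergic neuron-like cells at 2.53 CPM, the excitatory neuron-like cells at 2.42 CPM and the microglia-like cells at 1.06 CPM. Without E70_1 and E70_2 the intermediate progenitor-like cells were at 1.83 CPM, the GABAergic neuron-like cells at 2.41 CPM, the excitatory neuron-like cells at 1.07 CPM and the microglia-like cells at 0.643 CPM, while the astrocyte or radial glia-like cells stayed at 4.12 CPM. At 1000 UMIs per cell a UMI was found in 0.287% of the GABAergic, 0.261% of the excitatory neuron-like and 0.0425% of the microglia-like cells, the last of which was 1 cell. The GABAergic neuron-like cells, where parvalbumin interneurons would be looked for, were thus not above the astrocyte or radial glia-like cells in the pooled values, to which E60_1 and E60_2 gave most of the glia.

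Within E70_1 and E70_2, PVALB was high in neuronal cells and in non-neuronal cells as groups, but not in every class. E70_1 had 10.2 CPM in neuronal cells (7.51 to 13.6, 47 UMIs) and 7.57 CPM in non-neuronal cells (4.03 to 12.9, 13 UMIs). E70_2 had 13.5 CPM in neuronal cells (10.4 to 17.1, 66 UMIs) and 10.2 CPM in non-neuronal cells (6.34 to 15.7, 21 UMIs). Even the microglia-like cells of these libraries, 20 and 19 cells, were at 10.5 and 18.3 CPM on 3 and 4 UMIs, while those of the other whole cell libraries were at 0 to 1.74 CPM. The excitatory neuron-like cells were at 13.7 and 13.8 CPM (9.39 to 19.4 and 10.0 to 18.5). The GABAergic neuron-like cells had 7.08 CPM in E70_2 (2.85 to 14.6), but in E70_1 0 UMIs were counted in 73 cells, which allows up to 4.81 CPM and lies below the interval of its excitatory neuron-like cells. The upper-layer neuron-like cluster 0 was at 18.7 and 19.3 CPM in E70_1 and E70_2, against 0.643 CPM in E60_3 and 0.736 CPM in E70_3. These libraries were sequenced in different pools, E70_1 with E60_1 and E70_2 with E50_1, and neither partner was high in PVALB.

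**Figure D4:**
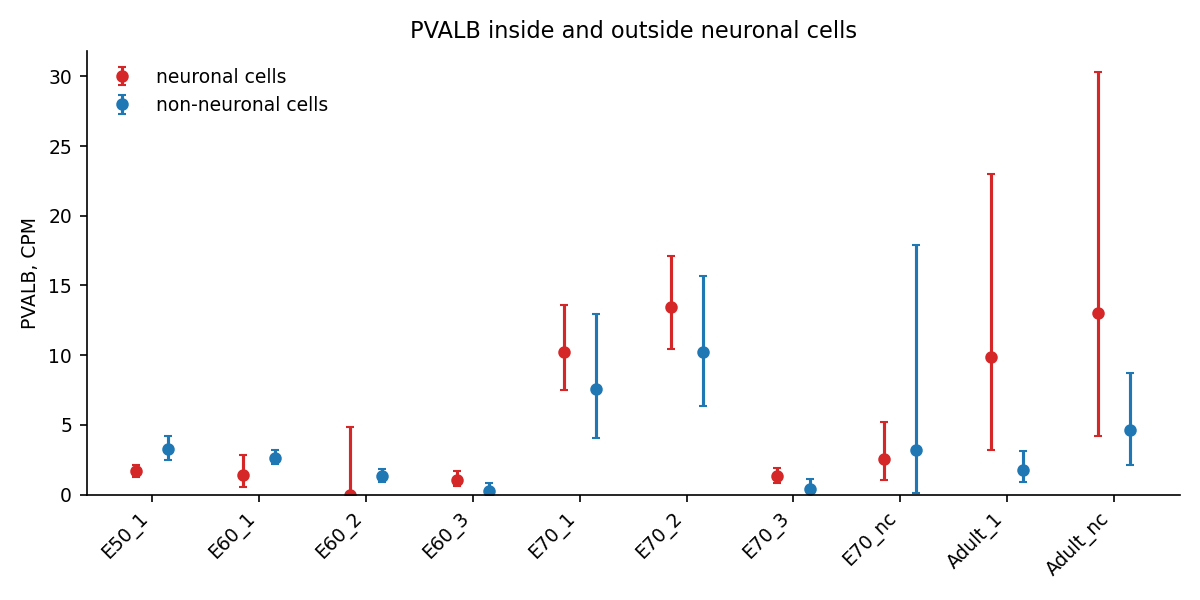
PVALB (CPM) in neuronal and non-neuronal cells of each library, with exact 95% Poisson intervals. Both kinds of cells are high in E70_1 and E70_2 and low in the other fetal whole cell libraries, and in the adult libraries the neuronal values rest on 5 UMIs each.

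The other fetal whole cell libraries differed in which cells held PVALB. In E50_1 neuronal cells were at 1.66 CPM (1.27 to 2.13) and non-neuronal cells at 3.25 CPM (2.48 to 4.19), and the intervals do not overlap. Astrocyte or radial glia-like cells held 75.2% of the PVALB UMIs of E60_1 and 75% of those of E60_2, at 4.83 and 3.64 CPM, and E50_1 had 5.36 CPM in the same class. Those of E60_3 and E70_3 were at 0.468 and 1.68 CPM. E70_3 as a whole had 1.30 CPM in neuronal cells (0.832 to 1.93) and 0.427 CPM in the others (0.117 to 1.09), and these intervals overlap. In E60_2 no UMI was counted in 123 neuronal cells, which allows up to 4.84 CPM.

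In the adult libraries neuronal PVALB rested on few counts. Adult_1 had 5 UMIs in 36 neuronal cells, which is 9.87 CPM (3.20 to 23.0), and 1.78 CPM (0.917 to 3.10) in non-neuronal cells. Adult_nc had 5 UMIs in 163 neuronal nuclei, which is 12.99 CPM (4.22 to 30.3), and 4.61 CPM (2.11 to 8.75) in the others. The intervals of neuronal and non-neuronal cells just fail to overlap in Adult_1 and overlap in Adult_nc. By the clustering of all cells, the 5 UMIs of Adult_1 were in 2 GABAergic neuron-like cells. In Adult_nc 4 of the 5 were in 3 GABAergic neuron-like nuclei. Among the neuronal clusters the 5 UMIs of Adult_1 lay in cluster 3, which is unnamed, so these cells are not read as interneurons. The VIP-led cluster 22 held 3 UMIs of Adult_nc, from 2 nuclei. The intervals cover all neuronal cells, and a level in adult interneurons was not measurable at this depth.

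Few neuronal cells had UMIs of more than 1 of these genes. Outside the Purkinje-like cluster, CALB2 was still more frequent in CALB1+ than in CALB1- cells. Of 10650 neuronal cells outside the Purkinje-like cluster, 203 had UMIs of both CALB1 and CALB2, which were 30.5% of the CALB1+ cells, and 16.6% of the CALB1- cells had CALB2. CALB1+ cells were also deeper, with a median of 9960 UMIs against 6880. At 1000 UMIs per cell 8 cells had both, so 9.20% of the CALB1+ and 4.69% of the CALB1- cells had CALB2. Within single clusters the shares were 30.3% and 30.2% in cluster 11, 46.96% and 41.4% in cluster 8, and 50% (9 of 18 cells) and 37.1% in cluster 15, while neither of the 2 CALB1+ cells of cluster 9 had CALB2, against 15.4% of the others. PVALB was found with CALB1 in 18 and with CALB2 in 52 of these cells at full depth and in none at 1000 UMIs.

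Over 53 clusters of at least 50 cells, 14293 genes were ranked by the correlation of their log CPM with that of each gene, as a description, since the clusters share libraries and depth. CALB1 was most like CTXN2 (Pearson r = 0.746), PCP4 (0.724), NEFL (0.701), SNCB (0.698), LHX1 (0.691), VSTM2L, LRRC3B and THEM6 (0.672). CALB2 was most like SCG2 (0.874), the gene listed only as ENSSSCG00000039506 (0.840), TCEAL7, BEX5, RAB9B, CALY, INA and RIPPLY2 (0.821). PVALB was most like SOHLH2 and WNT3 (0.719 each), SYT17, FBXO36, FSIP1, TCTN1, PAX7 and TSNAXIP1 (0.671). The patterns of CALB1 and CALB2 correlated at 0.408, those of CALB1 and PVALB at 0.001 and those of CALB2 and PVALB at 0.054.

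The only comparison with replicates was that of E70 with E60 whole cells. E60_1 and E60_2 had 0.110% and 0.115% excitatory neuron-like cells, against 49.9% in E70_1. Stage and cell content therefore cannot be told apart in it, and no change with maturation is read. The 3 E60 libraries had means ± SD of 26.9 ± 42.1 CPM for CALB1, 39.8 ± 37.7 CPM for CALB2 and 1.51 ± 0.892 CPM for PVALB (n = 3). The 3 E70 libraries had 2.54 ± 1.09, 45.4 ± 18.0 and 7.68 ± 5.97 CPM (n = 3). The groups overlapped for each of these genes. The exact permutation test over libraries, two-sided, gave p = 0.5, 0.9 and 0.3, where 3 against 3 cannot go below 0.1.

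In edgeR's quasi-likelihood test on whole libraries, 0 of 16743 genes passed an adjusted p of 0.05 (0% of the genes tested were called, with 4916 at an unadjusted p below 0.05, and DESeq2 called 1750 genes, 9.22%, up and 1157, 6.1%, down). CALB1 differed by -3.61 on the log2 scale (SE 1.36, edgeR adjusted p = 0.142). Without E60_1 the difference was -0.17 (adjusted p = 0.876), and without the Purkinje-like and the CALB1-rich cells it was -0.97 (adjusted p = 0.310), so its size rested on E60_1 and on those cells. Without E60_3, edgeR called 18.7% of genes up and 16% down, and CALB1 passed at -4.14 (adjusted p = 0.0441). CALB2 differed by 0.11 (SE 0.68, adjusted p = 0.916). PVALB differed by 2.09 (SE 0.90, adjusted p = 0.170) and passed the threshold without E70_3, the low E70 library, at 2.67 (adjusted p = 0.0492), in a fit that called 7.68% of genes up and 1.56% down. DESeq2 gave PVALB an adjusted p of 0.0569 and CALB1 none.

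The ratios differed between the sequencing pools that held both stages. Between E60_3 and E70_3, sequenced together, the ratio of E70 to E60 was 1.02 for CALB1, 0.342 for CALB2 and 1.31 for PVALB. Between E60_1 and E70_1, also sequenced together, it was 0.0399, 1.47 and 3.80. CALB2 thus went in opposite directions in the pools. The PVALB ratio between E60_3 and E70_3 rests on 22 and 28 UMIs, and no direction is read from it.

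**Figure D5:**
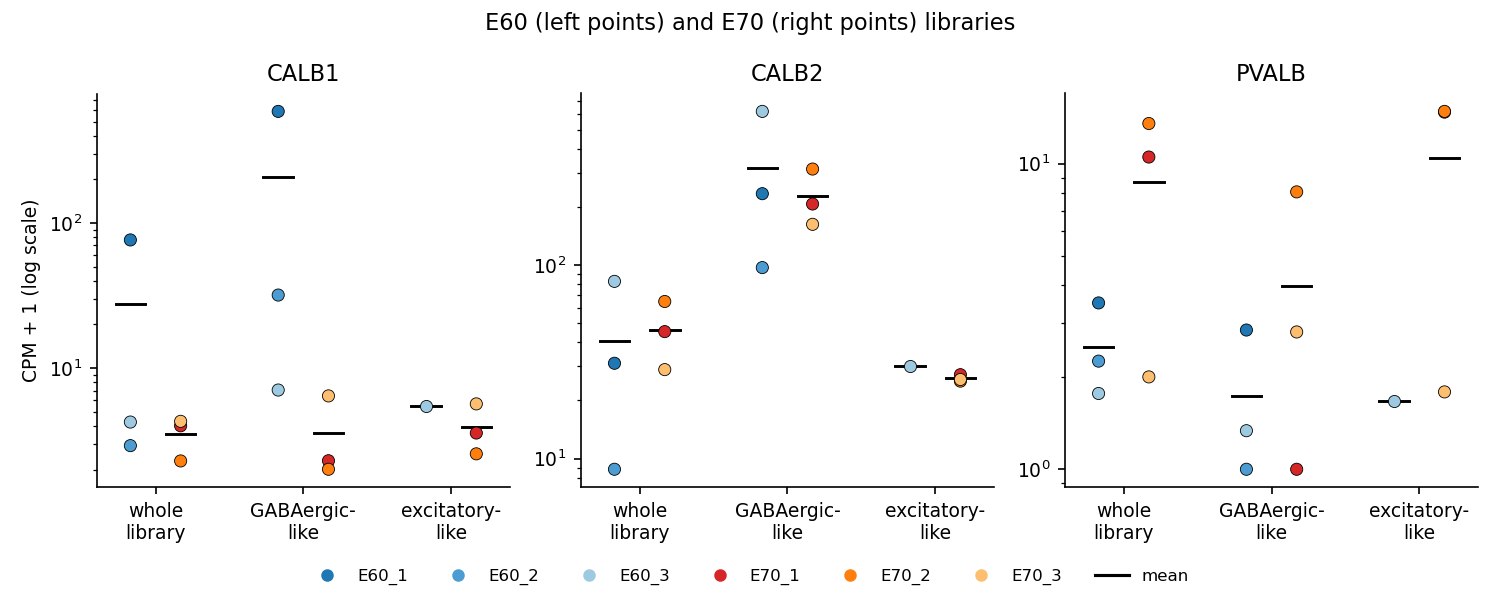
Level of CALB1, CALB2 and PVALB (CPM + 1, log axis) in each E60 and E70 library of whole cells, in all cells, in GABAergic neuron-like cells and in excitatory neuron-like cells, with the mean of each stage as a bar. The stages overlap in all cells for each gene, and E60_1 and E60_2 have too few excitatory neuron-like cells for a point.

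In the GABAergic neuron-like cells CALB2 was at 233, 96.1 and 621 CPM in the E60 libraries and at 206, 312 and 161 CPM in the E70 libraries. These ranges overlap, and edgeR gave -0.53 (SE 0.56, adjusted p = 0.550), with 0 of 11770 genes called (0%, 3469 at an unadjusted p below 0.05, and DESeq2 called 5.19% up and 5.63% down). When the Cajal-Retzius-like cells were left out, the E60 libraries were at 233, 96.1 and 108 CPM and the E70 libraries at 77.9, 26.2 and 39.6 CPM. These ranges do not overlap, at -1.83 (SE 0.54), but the edgeR adjusted p was 0.108, in a fit that also called 0 genes. The clusters behind these values differ, as given above, with the PENK-led cluster in E60_1 and E60_2 and the DLX-led clusters at E70.

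CALB1 and PVALB did not pass the filter on low counts in this class. CALB1 was at 586, 30.9 and 6.07 CPM at E60 and at 1.30, 1.01 and 5.44 CPM at E70, so every E70 library lay below every E60 library, with E60_3 and E70_3 close together. The ranges overlapped without the Cajal-Retzius-like cells (3.84 CPM in E60_3 and 6.09 CPM in E70_3) and with gated cells (3.34 CPM in E60_3 and 3.40 CPM in E70_1). With no filter edgeR called 2.91% of 18037 genes higher and 3.81% lower at E70, and CALB1 among the latter at -6.43 (SE 1.36, adjusted p = 0.0288). It was at -3.26 (adjusted p = 0.0368) without the Purkinje-like cells, at -2.65 (adjusted p = 0.124) without E60_1, at -6.93 (adjusted p = 0.302) without E60_2 and at -6.18 (adjusted p = 0.0714) without E70_1, and with the replicate number as a block it was at -4.33 (adjusted p = 0.0754). DESeq2 also called it, at -6.51 (adjusted p = 0.00513). In E60_1 and E60_2 the class was made mostly of other clusters than at E70, as given above. These p-values therefore compare different cells and do not measure a change within a kind of neuron. PVALB was at 1.85, 0 (at most 6.33) and 0.337 CPM at E60 and at 0 (at most 4.81), 7.08 and 1.81 CPM at E70, on at most 7 UMIs a library, and differed by 1.24 (adjusted p = 0.531). The excitatory neuron-like cells could not be tested, since E60_1 and E60_2 held too few of them. CALB2 in E60_3 was at 29.1 CPM in that class and in the E70 whole cells at 26.2, 24.2 and 24.7 CPM.

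The other calcium-binding genes were taken from a list of cytosolic buffers and S100 proteins, neuronal calcium sensors, calmodulins and calmodulin-like proteins, and EF-hand proteins of the secretory pathway. Whole libraries allowed 40 of the 43 listed genes found in the data to be tested, and 0 rose and 0 fell, with a median difference of -0.18 on the log2 scale against -0.06 over all genes tested. The 3 with the smallest p were S100A10, whose product binds annexin A2, at -2.46, EFHD2, an actin-binding EF-hand protein gene, at -1.41, and RCVRN (recoverin, the calcium sensor of photoreceptors), at 5.22, each with an edgeR adjusted p of 0.122. RCVRN was at 0.826, 0.432 and 0.595 CPM at E60 and at 74.6, 0.863 and 10.2 CPM at E70, so E70_1 stood far above the other libraries. In the GABAergic neuron-like cells 30 of the list were tested and again 0 rose and 0 fell, with a median of -0.59 against 0.05 over all genes tested. As 0% of all genes tested were called in either comparison, these counts are not particular to the list. The calmodulin genes CALM3 (-2.33) and CALM2 (-2.85) were among those with the smallest p there, each at an edgeR adjusted p of 0.0861. CALM3 was at 556, 629.8 and 179.7 CPM at E60 and at 70.3, 114 and 126 CPM at E70, so the stages did not overlap. The clusters of this class differed between E60_1 or E60_2 and E70, so stage and kind of cell cannot be told apart.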

How the data were processed

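The authors deposited 1 table per library with the UMI counts of each gene in each cell, not normalized. Per the labels and the methods of the study, 10x Genomics 3′ version 2 libraries were processed with Cell Ranger (given as 2.20) against Sscrofa11.1, with introns counted and Ensembl annotation. The members and the gene lists were chosen with earlier results of these data known. Library depth was 2336865 to 55755512 UMIs.

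From the counts, cells were log-normalized to 10000 UMIs. The 3000 most variable genes, without the 3 genes, marker genes and listed genes, gave 50 principal components, merged by FastMNN steps and clustered by Louvain (resolution 1.6 for all cells, giving 46 clusters, and 1.4 for neuronal cells, giving 24). A cluster was named where at least 3 markers were detected in at least 5% of cells at 2-fold or more, unless its leading genes were markers of another class. Doublets were scored with Scrublet and kept. Counts were summed per library, or per library and class with at least 20 cells, and tested with edgeR 4.0.16 (quasi-likelihood, TMM, Benjamini-Hochberg over all genes tested). DESeq2 1.42.0, other filters, clusterings and left-out libraries were alternatives, and so were fits without the Purkinje-like, CALB1-rich or Cajal-Retzius-like cells, chosen after seeing the data. The fit was tested on simulated data. Shares of cells have exact Clopper-Pearson intervals, and intervals cover counting error only. A CPM limit beside a count of 0 is the upper bound of the exact 95% interval. Named genes were the 3 genes, the 3 genes of the calcium-binding list with the smallest p where none passed, and the 8 genes most like each member. Some named genes are not reported here. Python 3.11.15 with scanpy 1.11.5, igraph 0.11.9 and scipy 1.17.1, and R 4.3.3, were used.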

Additional observations from a re-analysis of the deposited data

How the results depend on the processing

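Of 273 alternative values over 37 results, 227 were counted as the same, by a rule that differed between kinds of result. A log2 fold change had to keep its direction and side of the threshold, and a difference of mean CPM its direction alone. A number of genes called had to stay of similar size. Levels and shares had to move by less than the SD between libraries of a stage. That SD was wide for CALB1 in GABAergic neuron-like cells, so a move from 190 to 22.3 CPM counted as the same. In whole libraries, the number of genes called was 2907 with DESeq2 and 0 to 5902 when 1 library was left out, highest without E60_3, next without E70_3 (1570). Leaving out 1 library moved CALB1 between -4.15 and -0.17 (log2), CALB2 between -0.34 and 0.99 and PVALB between 1.43 and 2.67. CALB2 turned to -0.84 without E60_1 and E60_2, to -0.0472 without the Cajal-Retzius-like cells, to -0.0076 without E60_1, to -0.34 without E60_2 and to -0.28 without E70_2. In the GABAergic neuron-like cells 1950 genes were called with DESeq2, 1212 with no filter, 4 with cells gated by UMIs and 0 to 4384 with 1 library left out (4384 without E60_3, 1559 without E70_3). CALB2 there lay between -0.999 and 0.20 with 1 library left out, was 0.20 without E60_3 and was 0.0476 with gated cells. With no filter, leaving out 1 library gave CALB1 between -7.85 and -2.65, CALB2 between -1.08 and 0.0476 (without E60_3) and PVALB between -0.0213 (without E70_2) and 3.02. The difference of mean CPM, E70 minus E60, lay between -36.8 and -0.0544 for CALB1, between -10.4 and 26.4 for CALB2 (-10.4 without E60_2, -3.68 without E70_2) and between 3.74 and 9.50 for PVALB. The cause of these shifts was not tested.

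The level in excitatory neuron-like cells moved to 13.9 CPM (resolution 1.0) and 6.66 CPM (gated cells) for CALB1, and to 47.7 CPM (resolution 1.0), 107 CPM (no batch correction), 109 CPM (gated cells) and 37.7 CPM (without E70_1 and E70_2) for CALB2. CALB1 in astrocyte or radial glia-like cells moved to 2.97 CPM without E60_1. In GABAergic neuron-like cells CALB1 was 22.3 CPM without batch correction, and the reason was not tested. Thinned to 1000 UMIs, shares of cells with a UMI moved to 7.60% (CALB1, GABAergic), 0.702% (CALB1, excitatory), 11.4% (CALB2, GABAergic) and 2.24% (CALB2, excitatory), and at 2000 UMIs to 1.47% (CALB1, excitatory), 17.5% (CALB2, GABAergic) and 4.49% (CALB2, excitatory).

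The replicate numbers were not taken to pair the samples. Libraries numbered 1 were sequenced together, as were those numbered 3, but not those numbered 2, and the deviations of same-numbered libraries correlated at -0.171, 0.034 and -0.123 in whole libraries. With the replicate block, CALB1 was at -1.77 (edgeR adjusted p = 0.348), CALB2 at 0.43 and PVALB at 1.69 (adjusted p = 0.274) with 0 genes called, CALB2 in GABAergic neuron-like cells was at -0.32 (adjusted p = 0.778), and with no filter CALB1 there was at -4.33 (adjusted p = 0.0754) with 32 genes called. Fits of the excitatory neuron-like cells were not run under any setting, since fewer than 2 E60 libraries had 20 such cells.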
